A study of Mus musculus with 2 samples.

Results

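The cells described here are barcodes gated on Ccr2, Ly6c2 and Vcan, the leading transcripts of mouse classical monocytes, in single-cell RNA from KPPC pancreatic tumours. A barcode was a member if it held at least 3 UMIs (unique transcripts) of Ccr2, Ly6c2 and Vcan together and at most 2 UMIs of C1qa, C1qb and C1qc. Saa3 had to be under 1% of its UMIs, S100a8 and S100a9 under 3%, Ear2 and Car4 at 1 UMI or fewer, and Elane, Mpo and Prtn3 under 10. Flt3, Ccr7, Cd79a, Cd3e and Epcam all had to be at 0. The members were thus selected on measured counts, which makes the levels of these genes a description. Barcodes entered with 1000 or more UMIs, 500 or more genes and no more than 20% of UMIs from mitochondrial genes, and 651 of 36662 were members. Of these, 196 came from the vehicle library and 455 from the takinib library.

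The study compared tumours of KPPC mice, a genetic mouse model of pancreatic cancer, after vehicle or after takinib, an inhibitor of the kinase TAK1 (encoded by Map3k7). Takinib was given at 50 mg/kg, the mice were 6 weeks old, and treatment lasted 14 days. Each group is 1 library, and the labels do not say how many mice it holds. There is therefore no replicate, treatment and library cannot be told apart, and no p-value is given anywhere. Intervals are 95% and cover counting error only.

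Classical monocytes need the chemokine receptor CCR2 to leave the bone marrow, carry the surface protein Ly6C and follow CCL2 into inflamed and tumour tissue. There they lose Ly6C and become macrophages or antigen-presenting cells, which gain C1q or MHC class II. Early monocytes carry Plac8, Chil3 and S100a4, and maturing ones gain Apoe, Mrc1 and lysosomal genes. In tumours they are known for suppressive enzymes such as arginase 1 and inducible nitric oxide synthase.

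The libraries differed as a whole. Barcodes past the filters held a median of 3594.5 UMIs and 8.68% mitochondrial UMIs in vehicle (9872 barcodes) and 3049.5 UMIs and 1.84% in takinib (26790 barcodes). Of all barcodes past the filters, 400 occurred in both libraries, none of them a member in both. Neutrophil transcripts were spread over other cells in takinib, as free RNA is: T cells (Cd3e of 2 or more UMIs) held 12710 CPM (UMIs of a gene per 1000000 UMIs of the cells summed) of S100a8 there and 20.3 CPM in vehicle. The Saa3 and S100 conditions of the gate met this background, because 15.8% of takinib T cells had Saa3 at 1% or more and 18.3% had S100a8 and S100a9 at 3% or more. In vehicle T cells both shares were 0 of 57.

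The data went against the name classical monocyte for many vehicle members and for fewer takinib members. In vehicle, 118 of 196 members (60.2%, exact binomial interval 53.0 to 67.1) held 3 or more UMIs of 10 fibroblast markers, against 62 of 455 (13.6%, 10.6 to 17.1) in takinib. The pan-myeloid genes Lyz2, Csf1r, Fcer1g and Tyrobp reached 3 UMIs in 111 of 196 vehicle members (56.6%) and in 405 of 455 takinib members (89.0%). Vcan encodes versican, a matrix proteoglycan that fibroblasts also make, and 112 vehicle members passed on Vcan alone. Of those 112, 104 held 3 or more fibroblast UMIs and 78 held fewer than 3 UMIs of the pan-myeloid genes. Vehicle cells gated as fibroblasts (20 or more UMIs of Col1a1 and Col3a1) held Vcan at 223 CPM, while vehicle T cells held 5.08 CPM. In takinib, 65 members passed on Vcan alone and 46 on Ly6c2 alone. Ly6c2 is also a gene of effector T and NK cells, and 26 of the 46 held 3 or more UMIs of T and NK markers. By contrast, 62 of 196 vehicle members (31.6%) and 316 of 455 takinib members (69.5%) had at least 2 of the 3 genes.

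**Figure D1:**
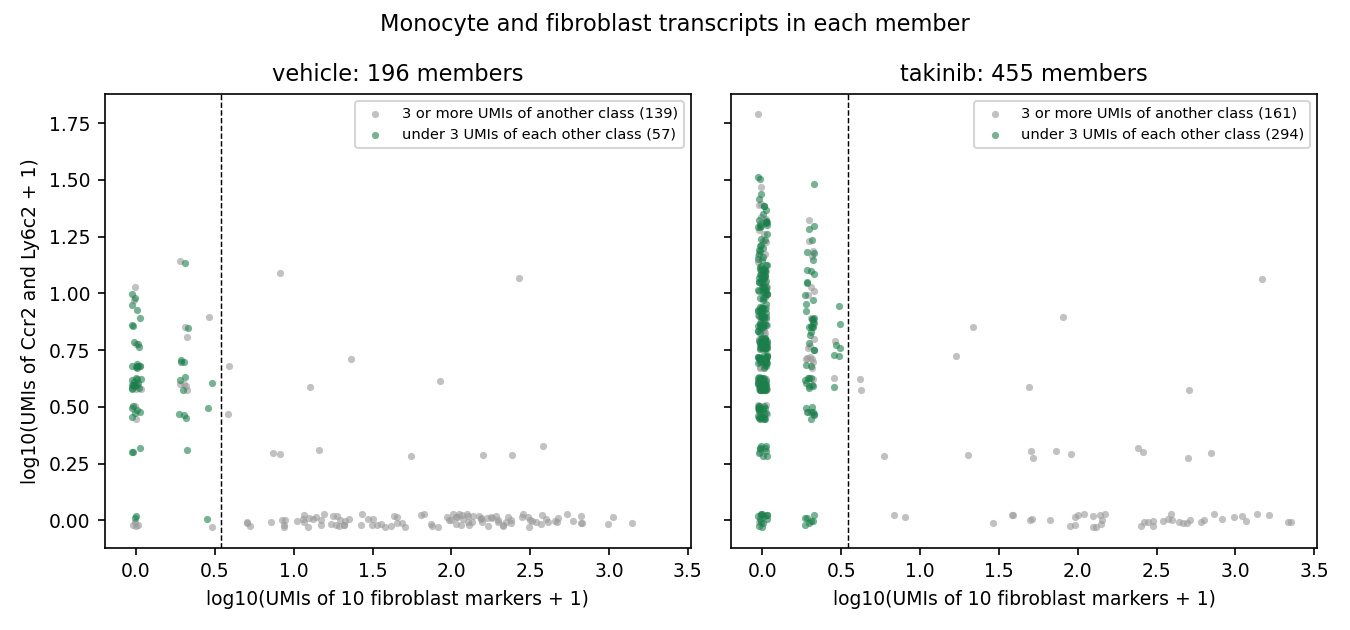
Each point is 1 member; the x axis is log10 of the UMIs of 10 fibroblast markers plus 1, the y axis log10 of the UMIs of Ccr2 and Ly6c2 plus 1, and the dashed line marks 3 fibroblast UMIs. In vehicle 118 of 196 points lie to its right and 104 of those sit at 0 on the y axis, against 62 of 455 in takinib; green points are the members with under 3 UMIs of each of 9 other cell classes (57 and 294).

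Members with fewer than 3 UMIs of the markers of each of 9 other classes (fibroblast, epithelial, endothelial, perivascular, T and NK, B and plasma, dendritic, erythroid, mast and basophil) are called marker-free members below. They numbered 57 in vehicle and 294 in takinib. Monocyte genes that the gate did not use stood above the T cell level in them in both libraries. In the plot of marker and myeloid genes, Ccr2, Ly6c2, S100a4, Lyz2 and Csf1r lie side by side in marker-free members and apart in all members. Plac8 was at 1701 CPM (1494 to 1928) in vehicle and 1448.5 CPM (1386 to 1513) in takinib, against 213 and 340 CPM in T cells. S100a4 was at 1457 and 1641 CPM, and Lyz2, which encodes lysozyme, at 11503 and 11178 CPM, against 4311 and 3167 CPM of Lyz2 in T cells. Ccr2 was at 871 and 817 CPM, Ly6c2 at 537 and 615 CPM and Vcan at 495 and 681 CPM, which the gate itself requires. The monocyte colony-stimulating factor receptor Csf1r was at 460 and 455 CPM. Plac8 ran in opposite directions in the cells with and without a Ly6c2 UMI. It was at 3268 CPM in vehicle and 1611 CPM in takinib in the former, and at 555 and 1128 CPM in the latter.

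**Figure D2:**
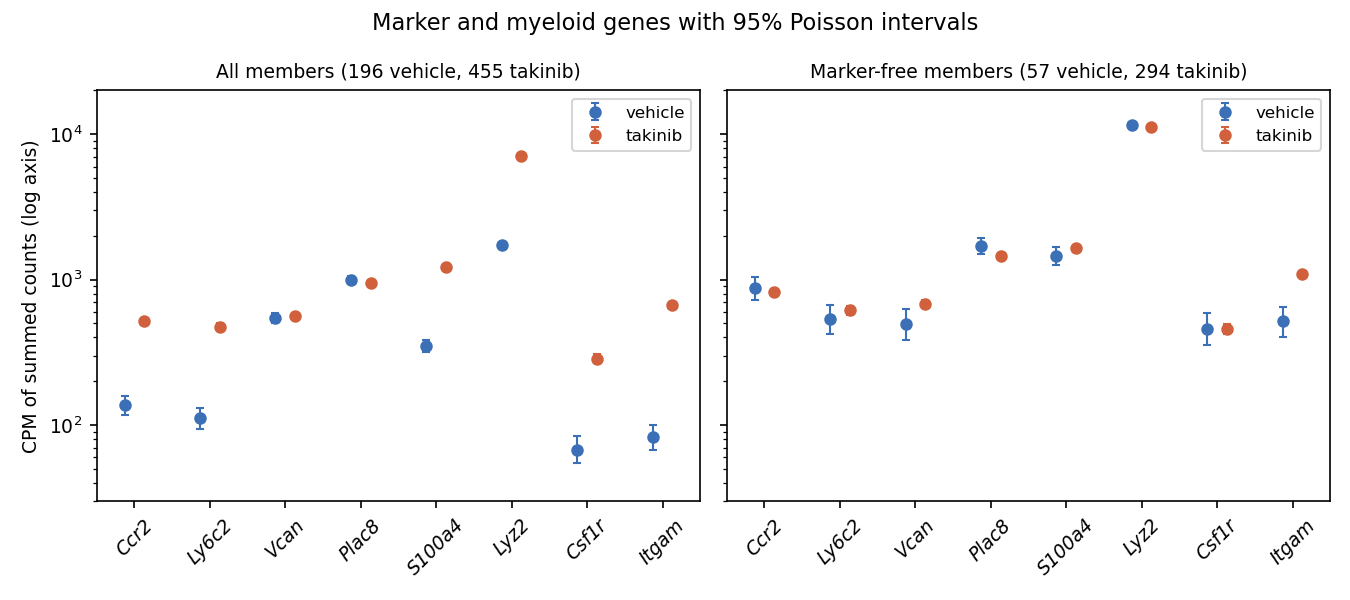
CPM of summed counts (log axis) for 8 genes in all members and in marker-free members, with exact Poisson intervals. In all members the vehicle points of Ccr2, Lyz2 and Csf1r lie at 136, 1719.8 and 67.7 CPM against 517, 7077 and 286 CPM in takinib; in marker-free members the same pairs are 871 and 817, 11503 and 11178, and 460 and 455 CPM.

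Taken over all members, the same genes read as a difference between the libraries: S100a4 stood at 350 CPM in vehicle and 1228.5 CPM in takinib, a log2 ratio of 1.78, against 0.17 in marker-free members. Conversely, the genes with the lowest ratios over all members included genes of other cells. The secreted binding protein Igfbp3 was at 1431 and 31.5 CPM, and the keratins Krt8 and Krt18 at 762 and 53.5 CPM and at 677 and 48.9 CPM. The vehicle members that held other classes' markers had Col1a1 at 4004 CPM and Krt8 at 847 CPM, with Lyz2 at 521 CPM. Over all members, 602 of 6664 genes with 50 or more counts in a library were past 2-fold higher in takinib (9.03%) and 650 past 2-fold lower (9.75%). At the level that 50 counts give in the shallower library, required in 1 of them, the shares were 10.2% and 13.5% of 4831 genes. The 28 measured classical monocyte genes had a median log2 ratio of 1.95 over all members and 0.34 in marker-free members, where all genes measured had medians of -0.10 and 0.15. For this reason the comparisons below are made in marker-free members.

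The share of members depended on the same choice. Members were 1.99% (1.72 to 2.28) of vehicle barcodes and 1.70% (1.55 to 1.86) of takinib barcodes. Marker-free members were 0.577% (0.438 to 0.747) and 1.10% (0.976 to 1.23), so the direction turned. Barcodes that failed the gate only on Saa3 numbered 3 in vehicle and 426 in takinib, and those that failed only on S100a8 and S100a9 numbered 8 and 631. Without these conditions the gate held 207 vehicle and 1715 takinib barcodes, of which 63 and 1287 were marker-free. The shares therefore follow where the gate cuts in takinib, and the part played by free RNA in that was not tested. The summed Ccr2, Ly6c2 and Vcan count of a marker-free member ran from 3 to 15 in vehicle (median 4) and from 3 to 43 in takinib (median 8). Vehicle members sat nearer the limit of 3, with 25 of 57 exactly on it against 37 of 294. Median depth was 2144 UMIs in vehicle and 4459.5 in takinib, and its part in that was not tested.

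Just inside and just outside the limits the cells were alike in some genes and not in others. Vehicle members at exactly 3 UMIs had Plac8 at 796 CPM and Col1a1 at 4954 CPM, and barcodes at exactly 2 UMIs had 573 and 7385 CPM. In takinib the corresponding Plac8 values were 677 and 609 CPM. Takinib barcodes with Saa3 at 0.5 to 1% and at 1 to 1.5% had Lyz2 at 7211 and 7787 CPM.

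Marker-free members were set beside their nearest relatives, which missed the gate on 1 condition. These were cells with 6 or more C1q UMIs (308 vehicle, 180 takinib), cells with Saa3 at 1% or more (310 takinib) and cells with S100a8 and S100a9 at 3% or more (525 takinib), all marker-free. The 15 genes with the highest smallest ratio over these relatives were led by Plac8, Tmsb10, Samhd1, S100a4 and Ifitm3, out of 392 ranked. Plac8, a small cysteine-rich protein of early myeloid cells, was at 48.7 and 287 CPM in the C1q relatives of vehicle and takinib, 694 CPM in the Saa3 relatives and 593 CPM in the S100 relatives. Samhd1, which hydrolyses deoxynucleotides, exceeded the 4 sets by log2 ratios of 0.76 to 1.27. The others were Ndufa4, Xbp1, Fxyd5, H2afj, S100a10, Ly6e, Lst1, Ptpn1, Sub1 and Fos.

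Each kind of relative had its own profile. The C1q relatives held Apoe at 15925 CPM in vehicle and 8792 CPM in takinib, where marker-free members held 1861.4 and 1840.1 CPM, and they kept Ccr2 at 885 and 646 CPM. The S100 relatives carried the neutrophil granule genes Camp at 12192 CPM and Ngp at 18294 CPM, with Ccr2 at 89.7 CPM. The Saa3 relatives kept Ly6c2 at 1028 CPM and had Arg1 at 4212 CPM and Camp at 20.3 CPM. Over all members the same ranking was led by Mfap5, Col15a1, Prl2c3 and Postn, of which Mfap5, Col15a1 and Postn encode matrix proteins.

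Within marker-free members, MHC class II genes were lower in takinib. All 6 measured genes of the list of 8 were past 2-fold lower, with a median log2 ratio of -2.94. Against this, 66 of all 3672 genes with 50 or more counts were past 2-fold lower (1.8%) and 435 past 2-fold higher (11.8%). Because 50 counts are a far lower level in the deeper takinib pool, the counts were repeated at 1 common level. Among genes with at least the CPM of 50 counts in the shallower library, 54 of 473 were higher (11.4%) and 27 lower (5.71%).

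MHC class II proteins are heterodimers that present peptides to CD4 T cells. The α chain gene H2-Aa (chromosome 17, 34282744 to 34287823, GRCm38) was at 2279.6 CPM (2039.2 to 2540.6) in vehicle and 239 CPM (214 to 266) in takinib, 9.53-fold lower. Its β partner H2-Ab1 (chromosome 17, 34257689 to 34269419) was at 2182 and 219 CPM, and H2-Eb1 (chromosome 17, 34305867 to 34316674) at 1429 and 116 CPM. Cd74, the invariant chain that guides class II through the cell, was at 6421 and 999.9 CPM. The peptide-loading genes H2-DMa and H2-DMb1 were at 662 and 131 CPM and at 272 and 47.0 CPM. The whole set was thus low together, chains, chaperone and loading factors alike. Ciita, which encodes their master activator, was at 76.7 CPM in vehicle and 5.06 CPM in takinib, on 11 and 7 counts.

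**Figure D3:**
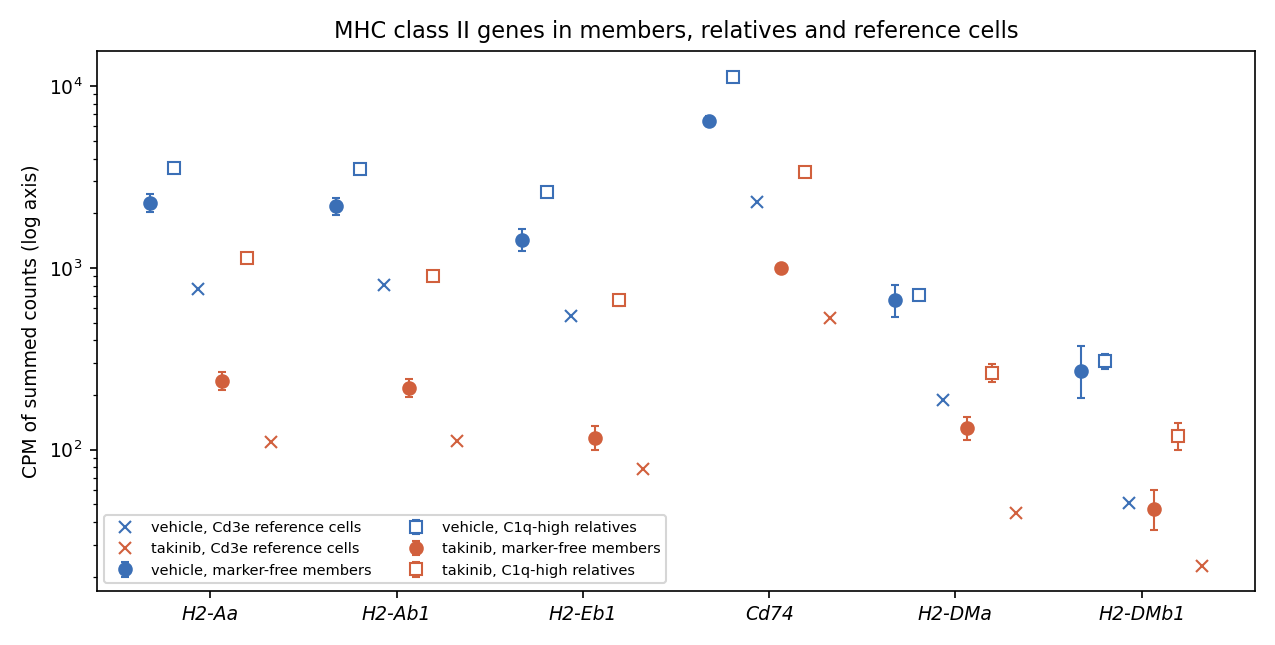
CPM of summed counts (log axis) for 6 MHC class II genes; circles are marker-free members and open squares C1q relatives, with exact Poisson intervals, and crosses are Cd3e reference cells. In every gene the takinib circle lies below the vehicle circle, and in both libraries the circle lies between the cross and the square.

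Class II transcripts in T cells also differed between the libraries, and members stood above them in both. Vehicle T cells, which as a rule lack class II in the mouse, held H2-Aa at 767 CPM and takinib T cells at 110 CPM. The C1q relatives held 3565 and 1141 CPM. After thinning each cell to 1000 UMIs, 36 of 57 vehicle members (63.2%, 49.3 to 75.6) and 48 of 294 takinib members (16.3%, 12.3 to 21.1) had 3 or more class II UMIs. In thinned T cells the shares were 14.0% (6.26 to 25.8) and 7.26% (4.65 to 10.7), and without thinning the members' shares were 84.2% and 43.9%. T cells had median depths of 2039 and 2820 UMIs.

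Class II was unevenly spread over the cells. The median marker-free member held 3820 CPM of class II transcripts in vehicle and 481 CPM in takinib, and the quartiles, 1608 to 20161 CPM and 188 to 1102.5 CPM, did not overlap. The 6 vehicle cells with the most class II counts held 49.4% of them, and the top 29 takinib cells held 69.5%. Among vehicle cells the summed class II level was 18719 CPM in the 30 without a Ly6c2 UMI and 5991 CPM in the 27 with one. In takinib these values were 2536 CPM in 99 cells and 1374 CPM in 195 cells, so class II was higher in cells without a Ly6c2 UMI in both libraries. Among Ly6c2-detected cells alone, H2-Ab1 was at 957 CPM in vehicle and 137 CPM in takinib, a log2 ratio of -2.72 (-3.16 to -2.25).

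Itgax and Ccl17, genes shared with dendritic cells, were high in the same vehicle subset as class II, the cells without a Ly6c2 UMI. Whether the same single cells held both was not tested. The integrin Itgax (CD11c) was at 229 CPM in Ly6c2-negative vehicle cells and at 33.0, 10.9 and 19.3 CPM in the other subsets (vehicle with Ly6c2, takinib with and without). The chemokine Ccl17 was at 362 CPM there, on 30 counts, and at 0, 2.18 and 12.9 CPM in the others. The dendritic list of 14 markers summed to 209 CPM in vehicle marker-free members and 81.6 CPM in takinib, with 9 and 6 genes at 0, among them Xcr1, Clec9a and Cd209a in both. Their part in the class II difference was not tested beyond the Ly6c2-detected cells.

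Class II promoters share the X-Y module, whose Y box (CTGATTGG) is bound by NF-Y. The 250 bases before the RefSeq start (GRCm38.p6) are shown for both chain genes of the table that hold it, because these genes were low together. The Y box is in capitals, and each run reads 5′ to 3′ on the gene's strand.
H2-Aa, chr17:34287824-34288073, minus strand: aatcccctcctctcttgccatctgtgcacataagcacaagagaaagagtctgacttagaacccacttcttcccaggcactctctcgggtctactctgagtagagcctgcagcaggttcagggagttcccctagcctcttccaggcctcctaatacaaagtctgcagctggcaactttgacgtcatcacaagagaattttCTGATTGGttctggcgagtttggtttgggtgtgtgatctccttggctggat
H2-Eb1, chr17:34305617-34305866, plus strand: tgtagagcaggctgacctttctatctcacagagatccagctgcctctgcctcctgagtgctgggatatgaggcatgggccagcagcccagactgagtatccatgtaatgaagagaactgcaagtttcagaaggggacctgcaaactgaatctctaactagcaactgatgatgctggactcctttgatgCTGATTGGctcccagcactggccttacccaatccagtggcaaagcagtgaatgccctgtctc
The Y box begins 51 and 62 bases before the start, respectively. Searched on both strands, CTGATTGG occurs in 3.83% of 32851 such windows and was not found in those of H2-DMa and H2-DMb1, which were lower as well. Only these exact letters were searched, and the H2-DMb1 window holds gtgattgg, which differs in its first base. The H2-DMa windows lie within the annotated span of the gene, and which start the members use was not tested.

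Outside class II, the genes with the lowest ratios included Ifi27l2a, Hist1h1c, Mrc1, Hist1h1e, Trf and Clec2d. Ifi27l2a, an interferon-inducible gene, was at 920 CPM in vehicle and 109 CPM in takinib, and T cells held 538 and 303 CPM. Mrc1, the mannose receptor of macrophages, was at 251 and 39.0 CPM, whereas the C1q relatives held it at 530.5 and 498 CPM. Trf, which encodes transferrin, was at 962 and 241 CPM. Hist1h1c, a linker histone, was at 349 and 47.7 CPM. Of the 66 lower genes, 53 stood above the highest of the epithelial, T and fibroblast reference levels in vehicle. A call as lower favours a high vehicle level, and the share of all genes above that reference was not counted.

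The interferon list as a whole was not lower to the same degree. Of its 12 genes with 50 or more counts, 1 (Bst2, at 132 and 60.0 CPM) was past 2-fold lower and none higher. Of all genes tested, 1.8% were past 2-fold lower and 11.8% higher. The median over 22 measured interferon genes was -0.35. Isg15 was at 62.7 and 57.8 CPM. MHC class I presentation, which does not depend on Ciita, had a median of -0.07 over 11 genes. Its light chain B2m was at 1840.4 and 1649.4 CPM and its heavy chain H2-K1 at 1039 and 989.8 CPM.

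Genes that NF-kB is known to induce were at higher levels in takinib members. Of 24 measured NF-kB targets all had ratios above 0, 15 were past 2-fold higher and none lower, with a median of 1.39, where 11.8% of all genes were past 2-fold higher and the median of all measured genes was 0.15. Reference cells held these transcripts as well. In takinib, 7 of the 15 stood above the highest reference level, as did 44.7% of all genes tested. Neutrophil genes, which the marker-free condition does not cover, moved with them: all 13 measured had ratios above 0 with a median of 2.30, and the 11 with 50 or more counts were all past 2-fold higher, 1 of them above the reference level. The 14 neutrophil genes of the list summed to 125 CPM in vehicle, with Mmp8, Camp, Ngp, Ly6g and Stfa2l1 at 0, and to 2231 CPM in takinib, and their part in these results was not tested. Il1b, the interleukin-1β cytokine, was at 586 CPM (467 to 725) in vehicle and 2373 CPM (2292 to 2455) in takinib, against 1415 CPM in takinib T cells and 1874 CPM in B cells. The NF-kB inhibitor gene Nfkbia was at 481 and 1220.2 CPM, with T cells at 913 CPM. Cxcl2, a neutrophil-attracting chemokine, was at 885 and 4373 CPM, and takinib T cells held 6156 CPM. Cxcl2 in members therefore did not exceed the T cell level, while Il1b and Nfkbia did.

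Of all 435 higher genes, 240 (55.2%) stood above the highest reference level and 54 by more than 2-fold, beside 1642 (44.7%) and 327 of all 3672 genes tested. Lcn2 and Slpi led the ratios but lay below it: Lcn2 was at 1121.3 CPM in takinib members and 3207 CPM in epithelial cells. Among those above it, Marcksl1, Mmp8, Nos2 and Aoah had no count in vehicle members. Nos2, inducible nitric oxide synthase, was at 163 CPM (142 to 185) in takinib, at least 7.77-fold higher than the limit of 3 counts in vehicle, and T and B cells held 97.3 and 117 CPM. Mmp8, a collagenase stored in granules, was at 184 CPM, at least 8.77-fold higher, with a highest reference level of 72.2 CPM. Other leading genes were Fpr2, Fpr1, Wfdc21, Ifitm1, Cxcl3, Clec4e and Gadd45b. The formyl peptide receptor genes Fpr2 and Fpr1 were at 207 and 151 CPM in takinib on 286 and 209 counts, and on 1 and 2 counts in vehicle. Clec4e, the Mincle receptor, was at 83.7 and 600 CPM, and Ifitm1 at 244 and 1777 CPM.

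Cxcl3, another ligand of the neutrophil receptor CXCR2, was at 112 and 1019 CPM, with takinib T and B cells at 649 and 835 CPM. Its promoter is shown with a kB motif (GGGAATTTC) in capitals, since a factor of the listed pathway binds such sites.
Cxcl3, chr5:90785851-90786100, plus strand: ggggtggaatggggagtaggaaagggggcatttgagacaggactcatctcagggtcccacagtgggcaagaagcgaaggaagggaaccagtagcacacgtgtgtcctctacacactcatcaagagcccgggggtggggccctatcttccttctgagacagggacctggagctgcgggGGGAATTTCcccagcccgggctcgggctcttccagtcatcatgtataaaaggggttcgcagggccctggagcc
The motif begins 73 bases before the start. On both strands these letters occur in 0.234% of windows, those of Cxcl1, Cxcl2 and Nfkbia among them, and not in those of Il1b, Clec4e, Il1a, Sod2 and Tnfaip3.

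Monocyte identity genes were mostly level. Of 28, Chil3, Hp, Cd14 and Itgam were past 2-fold higher and none lower, beside 11.8% and 1.8% of all genes tested. Chil3, a chitinase-like protein of monocytes fresh from marrow, was at 2412 and 5448 CPM, against 1752 CPM in takinib T cells. Cd14, the co-receptor for bacterial lipopolysaccharide, was at 390 and 1425 CPM. Itgam (CD11b) was at 516 and 1093 CPM. Hp, haptoglobin, was at 307 and 1144.4 CPM and below the highest reference level of 1464.7 CPM. Fcgr1 was at 146 and 131 CPM and Emilin2 at 383 and 384 CPM.

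Among the 15 monocyte transcription factors measured, Cebpd, Klf13 and Id2 were past 2-fold higher and none lower, beside 11.8% of all genes higher, and of the 3 only Klf13 lay above the reference level. Spi1 (PU.1) was at 272 and 441 CPM, Cebpb at 2293.6 and 2715 CPM, and Irf8, which drives dendritic and monocyte fate, at 174 and 97.5 CPM. Of the 14 chemoattractant and growth factor receptors, C3ar1, Fpr1, Fpr2, Cxcr2 and Csf3r were past 2-fold higher and none lower. C3ar1, Fpr1 and Fpr2 lay above the reference level, Fpr1 at 151 against 134 CPM, while Cxcr2 and Csf3r did not. Neutrophils also express Fpr1, Fpr2, Cxcr2 and Csf3r. Ccr1 was at 244 and 283 CPM and Cx3cr1 at 41.8 and 42.6 CPM. Of 13 chemokine ligands with 50 or more counts, 7 were past 2-fold higher and 1 lower, beside 11.8% and 1.8% of all genes. The median log2 ratio over 15 measured was 0.99, and 2 of the 7 lay above the reference level. Among ligands that were not called, Ccl6 was at 3764.5 and 2310.4 CPM and Ccl2 at 223 and 233 CPM. Of 22 suppressive myeloid genes, 9 were past 2-fold higher, 5 of them above the reference cells, and none lower. Arg1 was at 1185 and 1795 CPM. The size of that difference depended on Ly6c2: cells with a Ly6c2 UMI held Arg1 at 66.0 and 1451 CPM, on 4 vehicle counts, and cells without one at 2003.5 and 2473 CPM. Thbs1, thrombospondin 1, was at 1004 and 1885.6 CPM. F13a1, the coagulation factor XIII A chain, was at 132 and 537 CPM with a highest reference level of 299 CPM.

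Several groups showed little difference. None of the 17 oxidative phosphorylation genes was past 2-fold in either direction, with a median of -0.04, although the mitochondrial share of members was 10.0% in vehicle and 2.33% in takinib. Of 15 immediate-early genes, Ier3 and Egr1 were past 2-fold higher and none lower, beside 11.8% and 1.8% of all genes tested. Ier3 was at 328 and 1847 CPM and Fos at 816 and 1439.9 CPM, while Jun was at 627 and 402 CPM. Proliferation genes were scarce: after thinning, Mki67 was seen in 1 of 57 vehicle and 5 of 294 takinib members. Map3k7, the gene of takinib's target, was at 41.8 and 27.5 CPM on 6 and 38 counts, and its partner Tab2 at 69.7 and 126 CPM. Of 6 non-classical monocyte genes with 50 or more counts, 1 was past 2-fold higher and none lower, beside 11.8% and 1.8% of all genes. Of these 6, 5 stood above the highest takinib reference level. Among the scarcer genes of that list, Cd300e was at 0 and 1.44 CPM and Ace at 20.9 and 20.2 CPM.

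**Figure D4:**
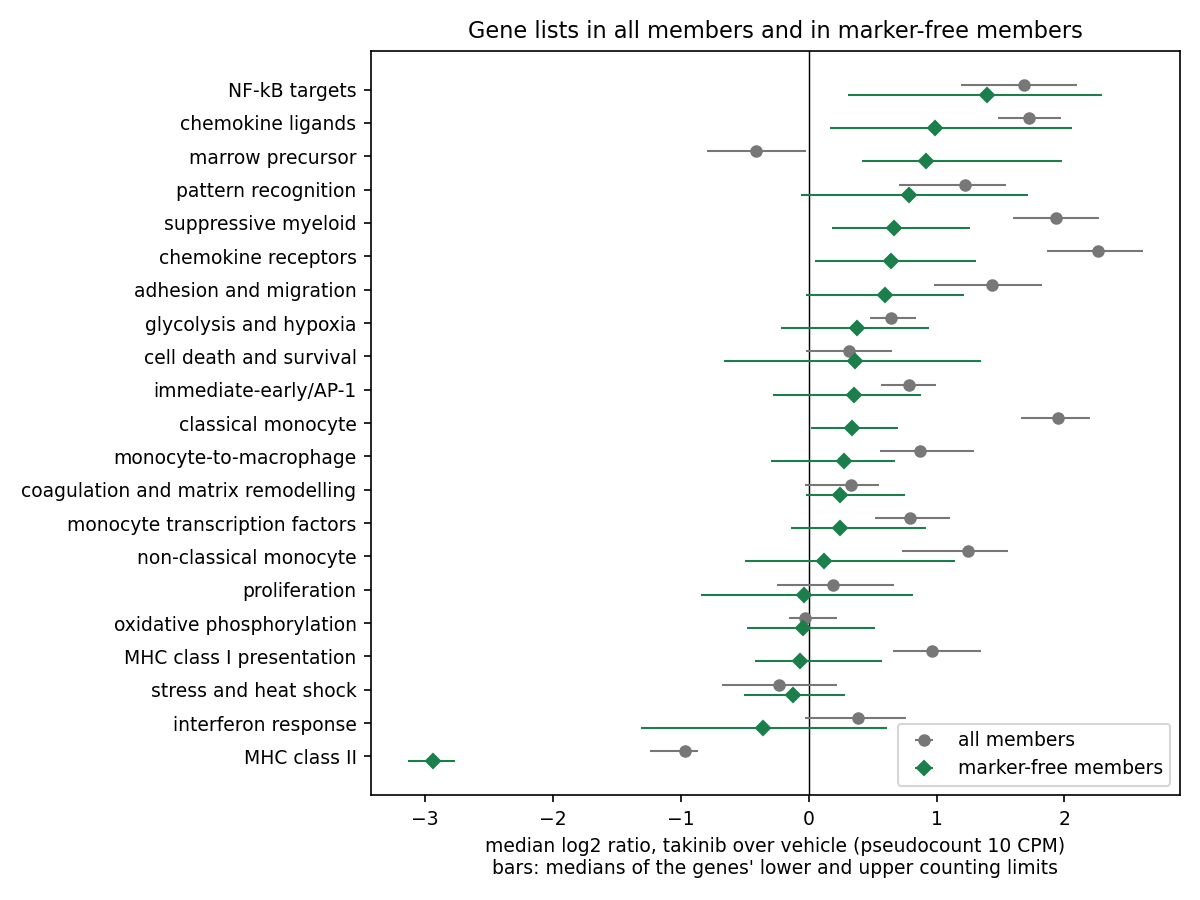
Median log2 ratio of takinib over vehicle for 21 gene lists with 3 or more measured genes, in all members and in marker-free members; bars run between the medians of the genes' lower and upper counting limits. MHC class II lies at -0.96 in all members and -2.94 in marker-free members, and the classical monocyte list at 1.95 and 0.34.

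Takinib members differed among themselves along Arg1. Among marker-free takinib members, 103 had 3 or more Arg1 UMIs (median 5073 UMIs per cell), 42 had 1 or 2, and 149 had none (median 4023). Of 2006 genes, 108 were past 2-fold higher in the first than in the last and 63 past 2-fold lower. Arg1 chose these cells, so it is not counted as a result. Cxcl3 was at 2321 CPM in the first, 203 CPM in the middle and 82.5 CPM in the last. Slc7a2, a transporter that brings arginine, the substrate of arginase, into the cell, was at 324, 40.5 and 12.9 CPM. The lipid droplet gene Hilpda was at 315, 122 and 43.7 CPM and the cholesterol exporter Abca1 at 422, 86.1 and 61.5 CPM. Ltc4s (leukotriene synthesis), Il6, Vegfa, Ptges (prostaglandin synthesis), Pf4 and Mmp12 followed the same order.

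Plac8 and Ifitm6 were lowest in the Arg1-high cells. Plac8 was at 691 CPM there, 1357 CPM in the middle and 2174 CPM in Arg1-negative cells. Ifitm6 was at 123, 294 and 592 CPM. The early monocyte genes Chil3 and S100a4 did not follow that order. Chil3 was at 4802, 6304.5 and 5769 CPM and S100a4 at 1214, 1980.0 and 1924.5 CPM, both highest in the middle and less than 2-fold apart. The integrins Itgal and Itgb7 were at 51.0 and 171 CPM and at 35.2 and 121 CPM in the outer subsets. The summed S100a8 and S100a9 level was 5294 CPM in Arg1-high and 6034 CPM in Arg1-negative cells, and class II summed to 1334 and 2368 CPM. In vehicle, 11 marker-free members with 3 or more Arg1 UMIs held Plac8 at 59.6 CPM and the 38 without Arg1 at 2312 CPM, on few cells. Cxcl3 did not show that order in vehicle, at 89.4 and 122 CPM.

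**Figure D5:**
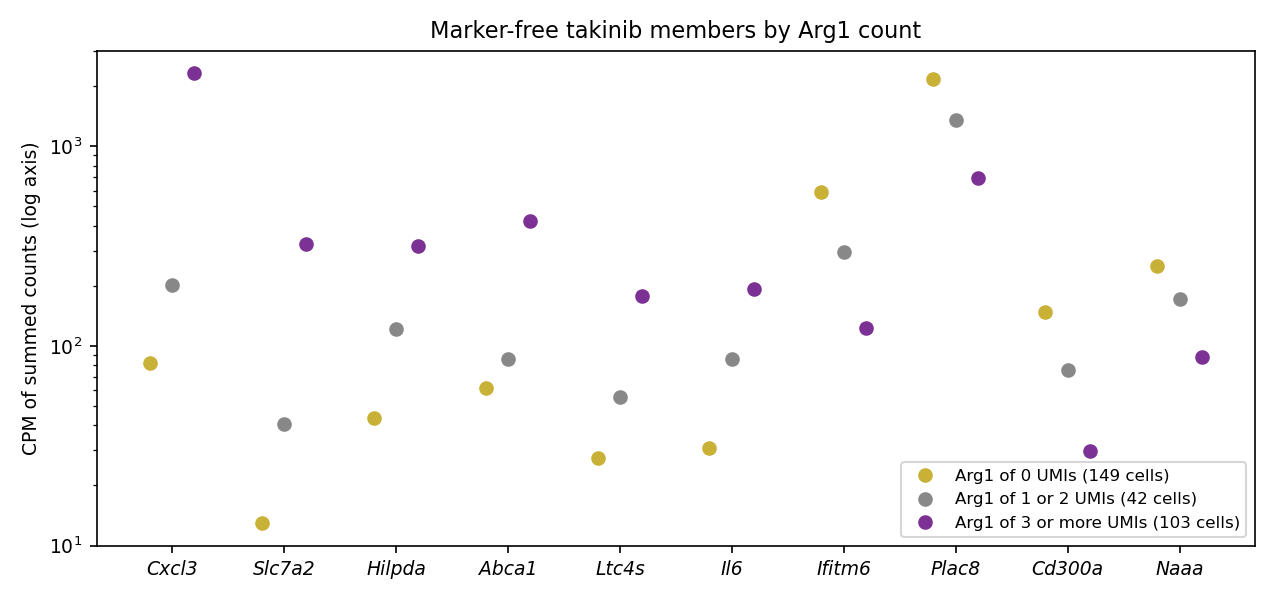
CPM of summed counts (log axis) of 10 genes in marker-free takinib members with 0, 1 or 2, and 3 or more Arg1 UMIs. Cxcl3 runs from 82.5 to 203 to 2321 CPM and Plac8 from 2174 to 1357 to 691 CPM, and the middle subset lies between the outer ones in all 10 genes.

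Ly6c2 detection, by comparison, split the takinib members little: of 2667 genes, 17 were past 2-fold higher in the 195 cells with a Ly6c2 UMI and 16 past 2-fold lower than in the 99 without. Cd300a, an inhibitory receptor, was at 112 and 43.0 CPM. Nos2 was at 110 and 266 CPM, Cd274, which encodes PD-L1, at 87.1 and 206 CPM, and H2-Ab1 at 137 and 380 CPM.

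The libraries also differed in sex of origin, read from Xist and 4 Y-linked genes. Among vehicle members 93 had Y-linked UMIs only, 13 had Xist only, 3 had both and 87 neither, while no takinib member had a Y-linked UMI and 344 had Xist. Of the marker-free vehicle members 14 were Y-only and 2 Xist-only. Against the 14 alone, the class II median in takinib was -3.14 and the NF-kB median 1.501. That comparison sets cells of male origin against members without a Y-linked UMI, so sex and treatment cannot be told apart in it.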

How the data were processed

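Single-cell RNA was measured in 2 libraries of KPPC tumour. The authors deposited raw UMI counts per gene and barcode, made with Cell Ranger 4 (vehicle) and Cell Ranger 6.1.1 (takinib) per the file headers. The submitters' processing notes list Cell Ranger 2.1.1, STAR 2.0.4b, featureCounts 1.45 and mm10, with no role given. The vehicle matrix lists 704261 barcodes, unfiltered, and the takinib matrix 34158 with at least 500 UMIs each. Members and gene lists were chosen with earlier results of these data known. Counts were summed over members of a library and scaled to CPM, and log2 ratios used a pseudocount of 10 CPM. A gene was called past 2-fold at a log2 ratio beyond 1 with 50 or more counts in a library, and lists used genes with 20 or more. Rule genes were left out of lists. Intervals are exact Poisson for levels, exact binomial (Clopper-Pearson) for shares, and for folds exact given a gene's total. A count of 0 was set against a limit of 3 counts per library. The text names the gate's genes and markers, the 12 highest and 12 lowest ratios (without ribosomal, mitochondrial, haemoglobin, immunoglobulin, sex-linked and unnamed genes), the 15 genes above relatives, members of gene lists, and Map3k7 with its partners; of the ranked genes a few are described. Some genes that the rule would name are not reported here. Genes named in the splits by Arg1 and Ly6c2 were chosen after seeing their values. Reference cells for free RNA were T cells, epithelial cells (Epcam of 2 or more), B cells (Cd79a of 2 or more) and fibroblasts; B cells were left out of the highest reference level. Scrublet (scanpy 1.11.5) marked 314 vehicle barcodes; in takinib its threshold marked 1, so the top 6% (1607) were marked instead. Of members, marked barcodes were kept in the main values and left out in an alternative. Gene positions are from GENCODE M21 (GRCm38), and promoters are RefSeq's (GRCm38.p6). Calculations used Python 3.11.15, numpy 2.4.6, scipy 1.17.1 and pandas 2.3.3 and were tested on simulated counts.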

Additional observations from a re-analysis of the deposited data

How the results depend on the processing

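Log2 ratios below are takinib over vehicle. The share of all members, -0.23 as reported, was 0.42 with a minimum of 2000 UMIs, 0.58 with every barcode thinned to 1000 UMIs, 0.91 with at least 2 of the 3 gate genes, 0.93 in marker-free members and 0.93 for cells of female origin. It was -0.53 with S100a8 and S100a9 under 1%, 0.67 over barcodes under 3% of them, 1.03 over myeloid barcodes, 1.61 without the Saa3 and S100 conditions and 2.91 with marker-free members besides. The share of marker-free members, 0.93, was 2.31 with 2000 UMIs, 2.95 for female origin, 1.82 and 1.52 over the same denominators and 2.91 without the conditions. Over all members, 133 genes were higher and 28 lower after thinning, 1206 were higher against vehicle cells of female origin, and 256 and 264 passed with a pseudocount of 50 CPM. Lower genes numbered 142 with 2 gate genes, 66 in marker-free members and 1021 with a minimum of 10 counts. The classical monocyte median of all members was 2.27 (2000 UMIs), 2.43 (mitochondrial limit of 10%), 0.65 (thinned), 0.60 (2 gate genes), 0.34 (marker-free), 2.37 (female), 2.57 (male), 1.495 (pseudocount of 50) and 1.19 (mean of each cell's CPM). The NF-kB median was 0.94 (thinned), 2.30 (female), 2.105 (pseudocount of 1) and 0.76 (pseudocount of 50), and the interferon median -0.058 (2 gate genes) and -0.35 (marker-free). The class II median was -2.33 (thinned), -2.75 (2 gate genes), -2.94 (marker-free), -0.79 (S100 under 1%), -0.84 (female), -0.48 (male), -1.58 (pseudocount of 1), -0.86 (scaled to a median gene ratio of 0) and -1.46 (mean of each cell's CPM). In marker-free members, 88 genes were higher and 18 lower after thinning, 128 and 33 with a pseudocount of 50, 933 and 279 with a minimum of 10 counts, 54 and 27 at a common CPM, and 884 and 158 against cells of male origin. Lower genes were 101 after scaling. Their class II median, -2.94, was -2.63 (thinned), -2.703 (S100 under 1%), -2.68 (mean of each cell's CPM), -2.67 (10 counts), -3.14 (male), -3.20 (under 10 UMIs of each other class) and -2.13 (Ly6c2-detected cells), so it stayed below 0 in each. Over all members, the sign turned for 2 lists whose counting limits lay on 1 side of 0, marrow precursor (0.62 thinned, 0.92 marker-free, 0.99 female) and class I presentation (-0.069 marker-free), and for Col8a1 (0.19 marker-free). It also turned in at least 1 alternative for medians whose limits crossed 0: interferon, proliferation (-0.30 thinned), coagulation and matrix (-0.048), cell death (-0.017), stress (0.038) and oxidative phosphorylation. In marker-free members the medians of class I presentation, glycolysis, interferon, macrophage, non-classical monocyte, oxidative phosphorylation, proliferation and stress genes turned in at least 1 alternative. Among Ly6c2-detected marker-free cells the sign turned for Cd274 (-0.17), Mmp12 (1.32) and Spp1 (0.66), which were past 2-fold, and, among genes that were not called, for Ccl17 (0.28, on 0 and 2 counts), Ccl9 (0.24), Ccr2 (0.32) and Cx3cr1 (-1.03) among others. The cause was not tested. All alternatives within marker-free members, and those of male origin, at a common CPM, in Ly6c2-detected cells or without the Saa3 and S100 conditions, were chosen after seeing the data. Only 2 marker-free vehicle cells were of female origin, so no gene or list value was made from them. No paired analysis was possible because each group is 1 library.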

Other observations

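Matrix and clotting genes of marker-free members were described by none of the comparisons as a group. Of 17 with 50 or more counts, 6 were past 2-fold higher in takinib (F13a1, Plaur, Mmp8, Mmp9, Mmp14 and Adam8) and 2 past 2-fold lower (Mmp12 and Sdc3), beside 11.8% and 1.8% of all genes tested. Of the 6, F13a1, Plaur, Mmp8 and Adam8 lay above the highest takinib reference level. Fibronectin, encoded by Fn1, was at 3486 CPM in vehicle and 3815 CPM in takinib, and Tgfbi, a matrix protein that monocytes secrete, at 913 and 1547.5 CPM. Spp1, which encodes osteopontin, was at 1275.8 and 473 CPM, below the level of 4975 CPM in the highest takinib reference cells. The macrophage metalloelastase Mmp12 was at 223 and 98.3 CPM and the leukotriene synthase Ltc4s at 209 and 93.2 CPM. Among cells with a Ly6c2 UMI the direction turned for Mmp12, at 49.5 and 138 CPM, and for Spp1, at 281 and 449.5 CPM, on 3 and 17 vehicle counts.

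Sensors of microbial products were measured on 11 genes, of which Cd14, Clec4e and Nlrp3 were past 2-fold higher and none lower. Of all genes tested, 11.8% were past 2-fold higher and 1.8% lower. Tlr2 was at 125 and 239 CPM and Tlr4 at 41.8 and 86.7 CPM. Glycolysis and hypoxia genes had a median log2 ratio of 0.38. Of 20, Pfkfb3 was past 2-fold higher and Pfkp past 2-fold lower, beside the same shares of all genes. The heat shock genes Hspa1a and Hspa1b were at 230.05 and 10.8 CPM and at 146 and 5.06 CPM, on 33 and 15 counts and on 21 and 7, which is under the minimum for a call.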
